A study of Mus musculus with 8 samples.

Results

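The deletion of the LIM-homeodomain gene Lhx2 from postmitotic neurons was examined through 4 RNA libraries of mouse subplate. The mutants were NexCre;Lhx2lox/lox mice, which carry the NexCre driver and a conditional Lhx2 allele. They were set against control pools of the same line, whose genotype is labelled WT. All genes were members of the comparison: the count table held 55202 rows that name a gene, of which 33424 had at least 1 read in the 4 libraries and 21392 passed the filter on low counts and were tested. The 4 libraries are those of the NexCre line, out of 8 in the series. Each was made from the pooled tissue of 2 newborn brains (postnatal day 0) of mixed strain, so n = 2 pools in each group throughout. The tissue was the lowest part of the cortical plate of the somatosensory cortex, cut out by eye from thick sections as presumptive subplate. If the WT controls have no Cre allele, Cre and the loss of Lhx2 cannot be told apart.

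Lhx2 encodes a transcription factor that binds DNA through its homeodomain and partner proteins such as Ldb1 through its LIM domains. In cortical progenitors it is known as a selector of cortical fate, and it is also expressed in neurons after they leave the cell cycle. NexCre is a knock-in at Neurod6, a gene switched on as excitatory neurons of the cortex become postmitotic, and it is not known for activity in interneurons or glia. Subplate neurons are born early and lie below the cortical plate, where arriving thalamic axons pause before growing in.

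The libraries held 31.2 and 38.7 M reads in the controls and 36.8 and 38.9 M reads in the mutants, and 20354 to 21760 genes had at least 10 reads. Levels below are read counts scaled to library size (CPM) after TMM scaling, and in bulk tissue fewer cells of a type cannot be told apart from less RNA per cell. The pools were not alike in what they held besides cortex. Control 1 carried thalamic transcripts: Lhx9, a homeobox gene of thalamic neurons, stood at 62.2 CPM there and at most 1.93 CPM in the other 3 pools, and the 15 markers of thalamus together came to 641 CPM against 317 to 348 CPM. Mutant 1, and less so control 1, carried choroid plexus transcripts. The 13 markers of choroid plexus and ependyma came to 2199 CPM in mutant 1, 421 CPM in control 1 and 26.1 and 38.0 CPM in control 2 and mutant 2, with Tmem212 at 0 reads in all 4. Most of the sum was Ttr, at 2037 CPM in mutant 1 and 359 CPM in control 1. In mutant 1 and control 1, Clic6 stood at 46.7 and 8.60 CPM, and Otx2 at 14.7 and 16.0 CPM. Mutant 1 lacked RNA of the Y chromosome, with Ddx3y at 0 reads, where the other pools had 58.1 and 60.7 CPM in the controls and 65.6 CPM in mutant 2. Defining markers of the labelled tissue were detected at low levels. The complexin gene Cplx3 stood at 0.937, 1.48, 1.01 and 0.710 CPM, Nxph4 at 11.5, 8.80, 8.498 and 9.10 CPM, Ccn2 at 9.18, 8.46, 12.3 and 11.8 CPM and Nr4a2, a nuclear receptor of subplate neurons, at 8.01, 22.4, 15.5 and 16.7 CPM in control 1, control 2, mutant 1 and mutant 2. On the first principal component, which held 41.0% of the variance, control 1 lay apart at −77.9 against 12.9 to 39.2 for the others. The second held 33.55% and set mutant 1, at 61.8, against control 2, at −53.6. On it control 1 lay at 4.99 and mutant 2 at −13.2.

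**Figure D1:**
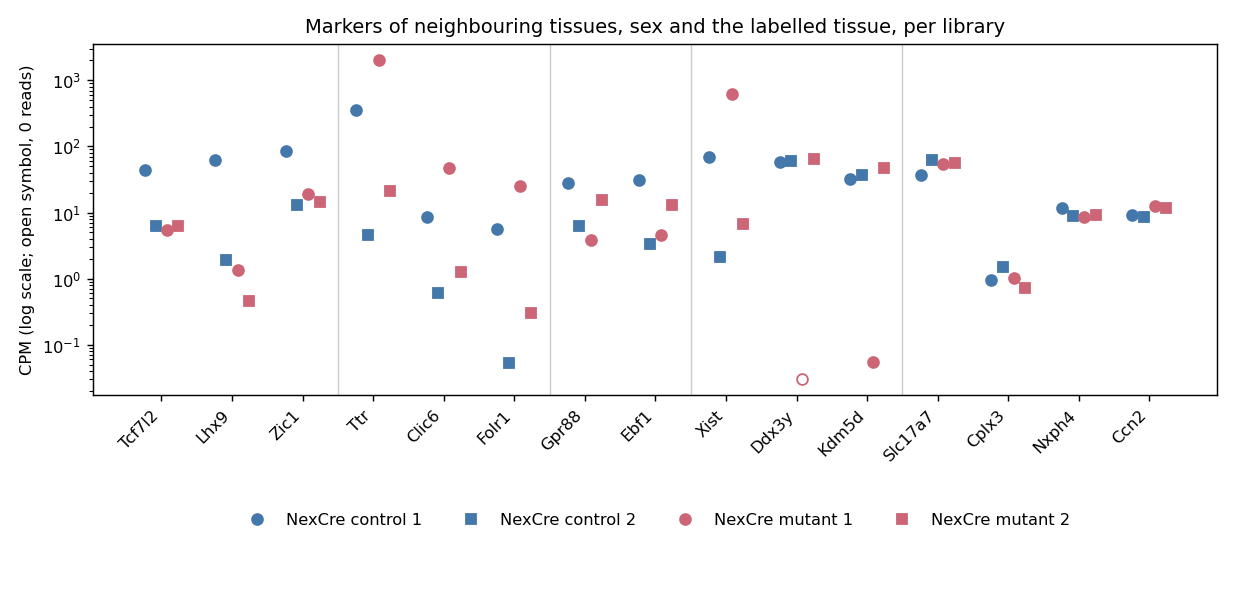
Levels of markers in each library, in CPM on a log axis, with controls in blue and mutants in red, pool 1 as circles and pool 2 as squares. From left to right the blocks are thalamus, choroid plexus, striatum, sex-linked genes, and cortical and subplate genes. Lhx9 stood at 62.2 CPM in control 1, Ttr at 2037 CPM in mutant 1, and the cortical and subplate genes of the last block differed less between pools.

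The deleted gene comes first. In mm10 Lhx2 lies at chromosome 2, 38339281 to 38369733, and its level was 189 and 246 CPM in controls and 236 and 256 CPM in mutants. The ranges of the groups overlapped, and the log2 fold change came to 0.18 ± 0.14, with a 95% interval from −0.14 to 0.50. By the quasi-likelihood test of edgeR, adjusted by Benjamini-Hochberg, its adjusted p was 0.880. The level of the whole gene was therefore not lower in the libraries labelled mutant. Without control 1 the log2 fold change was −0.0064, and without control 2 it was 0.38. Because the table counts whole genes, exons removed by recombination are not seen separately, and the labels are checked only in part. Lhx2 also overlaps the annotated genes Gm13584 and Gm27197. Below, mutant stands for the libraries labelled so, and every direction rests on that label. Neurod6 (chromosome 6, 55677822 to 55681263), a bHLH factor of cortical neurons whose locus carries Cre, stood at 409.8 and 528 CPM in controls and 319 and 239 CPM in mutants. Both mutant pools lay below both controls, with a log2 fold change of −0.75 ± 0.17, which did not pass edgeR's test (adjusted p = 0.364). DESeq2 called this difference (adjusted p = 0.00193), and so did edgeR without control 1, where the log2 fold change was −0.93 (adjusted p = 0.0165). Emx1, a homeobox gene of the dorsal telencephalon, stood at 33.3 and 52.4 CPM in controls and 28.8 and 27.5 CPM in mutants, a log2 fold change of −0.61 ± 0.21 that did not pass (edgeR's adjusted p = 0.651).

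Few genes differed between mutants and controls. Of the 21392 genes tested, 11 fell (0.0514%) and 6 rose (0.0280%) at an adjusted p under 0.05 in edgeR's quasi-likelihood test. All 11 genes that fell are annotated as protein coding, and none of the 6 that rose is, though AL824709.1 among these has no annotation here. In all 17 both mutant pools lay on the same side of both controls. Across all tested genes that was so for 18.5% on the higher side and 17.9% on the lower side, so a lack of overlap by itself sets few genes apart with 2 pools a side. Before adjustment, 728 genes were higher and 678 lower with p below 0.05, and DESeq2 called 67 higher and 76 lower among the same genes, including all 17. Each call rests on a spread shared across genes, because 2 pools against 2 cannot give an exact two-sided permutation p below 0.333.

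**Figure D2:**
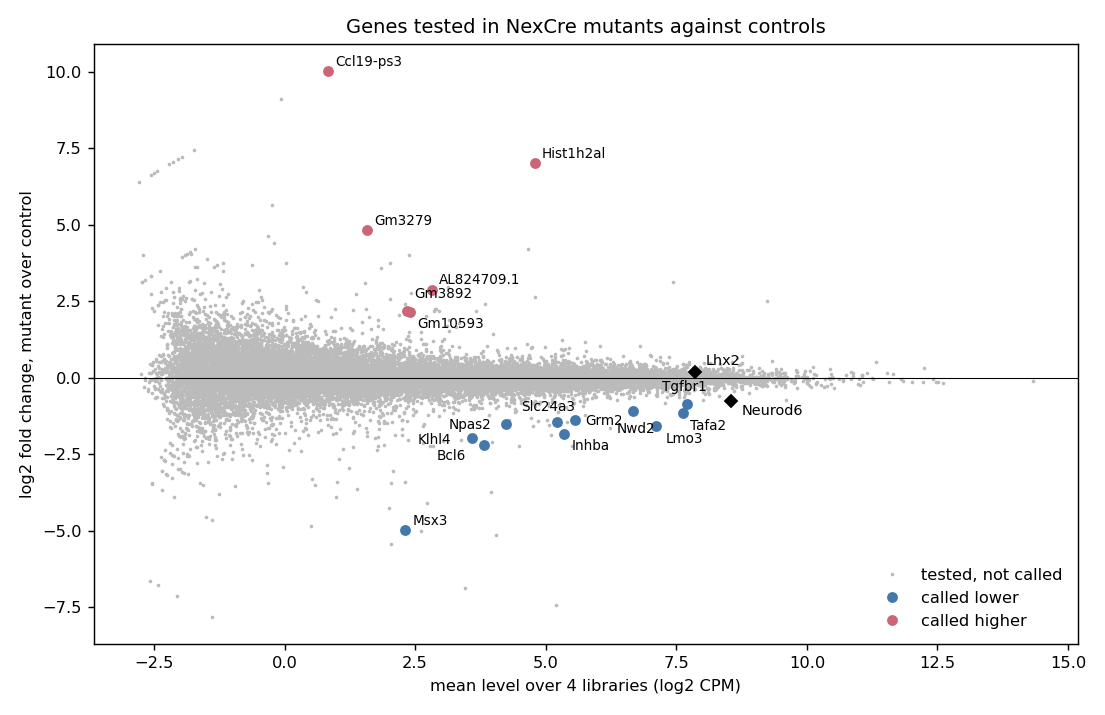
Log2 fold change of mutants over controls against the mean level over the 4 libraries (log2 CPM) for each tested gene. Blue points are the 11 genes called lower, red points the 6 called higher and black diamonds Lhx2 and Neurod6. The genes called lower include well-expressed genes such as Tgfbr1 and Tafa2, and the height of Ccl19-ps3, which had 0 reads in both controls, depends on the prior count of the fit.

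Of the genes that fell, 4 encode regulators of transcription. Msx3 (chromosome 7, 140046157 to 140049089), a homeobox gene known from the dorsal neural tube, stood at 10.2 and 9.08 CPM in controls and 0.218 and 0.380 CPM in mutants, from 315 and 349 reads in controls and 8 and 15 reads in mutants. Its RNA was close to absent in both mutant pools, with a level 31.7-fold lower (log2 fold change −4.99 ± 0.38, edgeR's adjusted p = 0.00463). Bcl6 (chromosome 16, 23965052 to 23988852), a zinc-finger repressor known to promote neuronal differentiation in the cortex, stood at 26.9 and 19.3 CPM in controls and 5.01 and 5.05 CPM in mutants. The mutant pools nearly coincided and lay well below both controls, and the log2 fold change was −2.20 ± 0.22 (edgeR's adjusted p = 0.0184). Lmo3 (chromosome 6, 138362918 to 138581968), a LIM-only protein that has no homeodomain and binds Ldb cofactors, as Lhx2 does, stood at 221 and 196 CPM in controls and 71.3 and 67.6 CPM in mutants. It fell 3.00-fold (log2 fold change −1.58 ± 0.11, edgeR's adjusted p = 0.00396), the lowest p among the genes that fell. Npas2 (chromosome 1, 39193731 to 39363236), a bHLH-PAS partner of Bmal1 in the circadian clock, stood at 28.7 and 27.4 CPM in controls and 8.42 and 11.4 CPM in mutants and fell by 1.501 ± 0.19 on the log2 scale. It had the highest adjusted p of the 17 calls (0.0483 in edgeR's test) and was not called under a stricter filter on low counts.

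Around activin and TGF-beta signalling, 2 genes fell and another lay below both controls without passing the test. Inhba (chromosome 13, 16011851 to 16031621), which encodes the subunit of activin A, stood at 57.6 and 69.9 CPM in controls and 17.1 and 18.6 CPM in mutants. The mutant pools held less than the lower control in each case, a 3.56-fold fall (log2 fold change −1.83 ± 0.15, edgeR's adjusted p = 0.00694). Tgfbr1 (chromosome 4, 47353222 to 47414931), the type I receptor for TGF-beta, stood at 271 and 269 CPM in controls and 149.9 and 148 CPM in mutants. Replicates of this gene nearly coincided in each group, and a fall of only 0.85 ± 0.10 on the log2 scale was called (edgeR's adjusted p = 0.0338). Fst, which encodes follistatin, a secreted protein that binds and blocks activin, stood at 8.79 and 14.9 CPM in controls and 2.34 and 2.71 CPM in mutants. Its log2 fold change of −2.23 ± 0.32 did not pass the threshold in edgeR (adjusted p = 0.0823) and did in DESeq2 (adjusted p = 6.93e-08). The activin receptors of the list of 39 signalling genes were not called: Acvr2a stood at 106, 102, 112 and 96.0 CPM, Acvr2b at 26.7, 20.4, 20.3 and 21.4 CPM and Acvr1 at 27.2, 25.2, 18.9 and 25.6 CPM in the order of pools used above. Inhbb, the subunit of activin B, stood at 38.6 and 44.9 CPM in controls and 48.8 and 59.6 CPM in mutants with a log2 fold change of 0.38 ± 0.15, which did not pass either. On that list 1 member was called lower and 0 higher (6 higher and 5 lower by unadjusted p below 0.05, 1 and 3 by DESeq2), 9 members lay higher and 7 lower without overlap (backgrounds 18.5% and 17.9%), and the median log2 fold change was 0.0012 [−0.033 without mutant 1, 0.15 without control 1], beside 0.0051 over all tested genes. Here and below, brackets after a list's median give its lowest and highest value when 1 pool was left out, where a pool turned its sign or moved it by over 1.5 times. Its other members with low p-values, Sfrp1, a secreted Wnt inhibitor (0.52 ± 0.11), and Fzd1, a Wnt receptor (−1.07 ± 0.26), did not pass.

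The sequence before the start of the lower genes was searched for the core that homeodomains bind. The promoters below, 250 bases before to 50 bases after the start (RefSeq, GRCm38.p6, printed 5′ to 3′ on the strand of the gene), belong to the 3 lower genes with the lowest p-values, and capitals mark TAAT or its reverse complement ATTA.
Lmo3 chr6:138581919-138582218 minus strand: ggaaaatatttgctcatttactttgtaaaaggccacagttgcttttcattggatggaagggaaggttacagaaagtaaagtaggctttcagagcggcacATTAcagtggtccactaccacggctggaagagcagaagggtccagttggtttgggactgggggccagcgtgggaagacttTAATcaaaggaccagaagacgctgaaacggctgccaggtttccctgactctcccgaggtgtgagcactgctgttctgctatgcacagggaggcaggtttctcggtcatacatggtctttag
Msx3 chr7:140049039-140049338 minus strand: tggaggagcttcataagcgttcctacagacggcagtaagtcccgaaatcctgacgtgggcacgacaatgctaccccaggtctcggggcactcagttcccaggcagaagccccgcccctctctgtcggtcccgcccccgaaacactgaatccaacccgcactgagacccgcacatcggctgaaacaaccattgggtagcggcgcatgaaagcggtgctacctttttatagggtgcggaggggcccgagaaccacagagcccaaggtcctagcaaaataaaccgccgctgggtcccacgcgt
Inhba chr13:16011601-16011900 plus strand: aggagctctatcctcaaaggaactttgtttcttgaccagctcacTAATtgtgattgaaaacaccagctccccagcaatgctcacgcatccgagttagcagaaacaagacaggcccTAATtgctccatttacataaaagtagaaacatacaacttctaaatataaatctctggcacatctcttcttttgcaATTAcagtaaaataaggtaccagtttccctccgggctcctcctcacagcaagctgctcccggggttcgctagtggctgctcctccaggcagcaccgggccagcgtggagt
The Inhba window held 3 such cores, the Lmo3 window 2 and the Msx3 window 0. Of the 14 windows of the 11 genes, 6 (42.9%) held at least 1, where 58% of 32851 windows of the whole table did, and 4 (28.6%) held at least 2, where 34.1% did. The longer motif TAATTA, which reads the same on both strands and contains both cores, was in 0 of the 11 genes and in 5.29% of all windows. These shares lie near or below those of all promoters, and nothing is read from them about binding of Lhx2, whose sites may lie elsewhere.

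The other 5 genes that fell were Grm2, Slc24a3, Tafa2, Klhl4 and Nwd2. Grm2 (chromosome 9, 106643095 to 106656082), a presynaptic metabotropic glutamate receptor, stood at 66.3 and 69.7 CPM in controls and 25.2 and 27.2 CPM in mutants, a 2.60-fold fall (log2 fold change −1.38 ± 0.13, edgeR's adjusted p = 0.0116). Slc24a3 (chromosome 2, 145167754 to 145642166), a potassium-dependent sodium-calcium exchanger, stood at 58.5 and 49.6 CPM in controls and 18.3 and 21.8 CPM in mutants and fell by 1.43 ± 0.16 on the log2 scale. Tafa2 (chromosome 10, 123264024 to 123741204), a secreted chemokine-like protein of the brain, stood at 255 and 289 CPM in controls and 112 and 132 CPM in mutants and fell by 1.16 ± 0.12. In each of these 3 genes the pools of a group differed by less than the groups did. Klhl4 (chromosome X, 114474333 to 114560829), a member of the kelch-like family, stood at 15.9 and 22.2 CPM in controls and 4.55 and 5.17 CPM in mutants and fell by 1.97 ± 0.23 on the log2 scale. It is X-linked, and the part of the sex of the pools in its level was not tested. Nwd2 (chromosome 5, 63649102 to 63810546), which encodes a protein with NACHT and WD-repeat domains, stood at 127 and 149 CPM in controls and 63.6 and 67.3 CPM in mutants and fell by 1.08 ± 0.12 on the log2 scale. In edgeR's test the adjusted p of these 4 genes ran from 0.0255 for Tafa2 to 0.0347 for Klhl4. All of the 11 but Msx3 overlap another annotated gene, and the strand setting of the counting is not given in the sources used here. Of the 100-base windows of the Grm2 and Nwd2 transcripts, 7.44% and 10.6% occur in the overlapping genes Gm28111 and Gm9954, and in 8 of the others no window was shared, while Tafa2 was not searched.

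**Figure D3:**
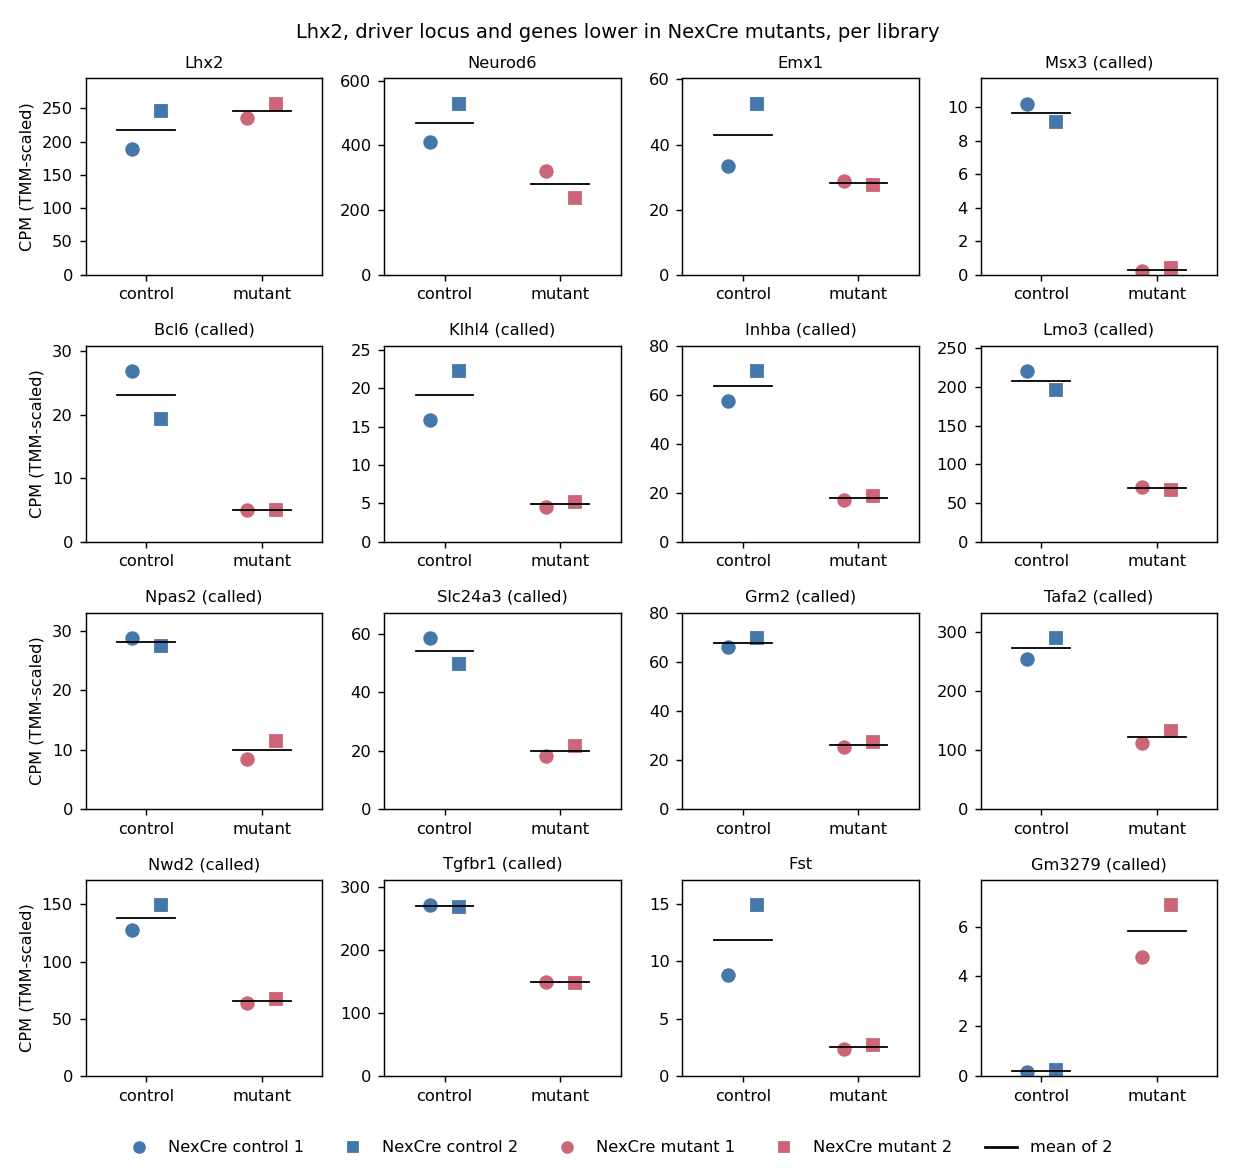
Level in each library (CPM, linear axes from 0) of Lhx2, Neurod6 and Emx1, of the 11 genes called lower, of Fst and of Gm3279, with controls in blue and mutants in red, pool 1 as circles, pool 2 as squares and the mean of each pair as a line. In Lhx2 the groups overlap, and in each of the 11 genes called lower the mutant pools lie below both controls, as in Msx3 at 0.218 and 0.380 CPM against 10.2 and 9.08 CPM.

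The calls were recomputed without each pool in turn, where the lone pool left in a group is assumed to vary like the other group. Without control 1, 68 genes were called higher and 44 lower, and all 17 were among them. Without control 2 the counts were 39 and 170, and without mutant 2 they were 38 and 26, again with all 17. Without mutant 1, 4 genes were called higher and 6 lower, among them 9 of the 17, and Npas2, Slc24a3, Klhl4, Tafa2, Nwd2 and Tgfbr1 were lost on the lower side and Gm3892 and Gm10593 on the higher side. Their log2 fold changes without mutant 1 were −1.30, −1.32, −1.89, −1.05, −1.04, −0.86, 2.19 and 2.11 in that order, beside −1.501, −1.43, −1.97, −1.16, −1.08, −0.85, 2.19 and 2.17 with it, and edgeR's adjusted p ran from 0.0536 to 0.179. Between control 2 and mutant 2 alone, the pair with the least choroid plexus RNA and with Y-linked RNA in both, the log2 ratios of the 11 genes ran from −0.86 for Tgfbr1 to −4.58 for Msx3, which no test accompanies. When the libraries of the other line were fitted together with these, 4 genes were called higher and 3 lower, and 6 of the 17 were kept. The 3 lower genes of that fit were Msx3, Lmo3 and Grm2. All 17 kept their direction under every alternative that gave them a value. In all 17 the groups do not overlap, so leaving out a pool, or taking control 2 and mutant 2 alone, could hardly have turned it.

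The 6 genes that rose are pseudogenes, placeholder names or non-coding RNA, and their names were picked with their values in view. Hist1h2al (chromosome 13, 51202727 to 51203065), annotated as a processed pseudogene of histone H2A, had 18 and 11 reads in controls and 1471 and 2740 reads in mutants. Its log2 fold change was 7.01 ± 0.39 (edgeR's adjusted p = 0.00125), the lowest p of the comparison, and 19.2% of its 100-base windows occur in 9 other genes. Of 17 tested histone genes that depend on replication, 0 were called by edgeR (4 higher by unadjusted p below 0.05, 1 higher by DESeq2), with a median log2 fold change of 0.19 [0.028 without mutant 1, 0.27 without mutant 2] and Hist1h1e (0.52 ± 0.12) and Hist1h1d (0.26 ± 0.10) at the lowest p-values. AL824709.1, which has no position in the annotations used here, stood at 2.17 and 1.22 CPM in controls and 11.4 and 13.5 CPM in mutants (log2 fold change 2.89 ± 0.33, edgeR's adjusted p = 0.0290).

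Of the 6, Gm3279 lies beside the locus that carries Cre. Gm3279 (chromosome 6, 55684571 to 55694574), a long intergenic non-coding RNA on the strand opposite to Neurod6, begins 3.31 kb from the start of Neurod6. It stood at 0.162 and 0.234 CPM in controls and 4.77 and 6.85 CPM in mutants, from 5 and 9 reads in controls and 175 and 270 in mutants, a log2 fold change of 4.83 ± 0.44 (edgeR's adjusted p = 0.0116). The RNA was thus higher in both mutant pools while Neurod6 itself was at its lower levels there. Gm3279 passed the filter on low counts only through the mutants. Within 500 kb of the Neurod6 start 8 genes were tested, Gm3279 alone was called, and the median log2 fold change was −0.20. Itprid1, 156 kb away, stood at 2.94, 4.24, 3.13 and 2.00 CPM, and Adcyap1r1, the receptor for the neuropeptide PACAP, at 271, 172, 182 and 187 CPM in control 1, control 2, mutant 1 and mutant 2, neither of them called. Around Lhx2 the same window held 16 tested genes, of which 4 lay higher without overlap and 0 lower, beside 18.5% and 17.9% of all tested genes, with a median of 0.17. The part of the Cre knock-in in the level of Gm3279 was not tested.

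Of the 6, 3 lie in a stretch of chromosome 4 that holds repeated gene copies. Ccl19-ps3 (chromosome 4, 42132559 to 42134171) had 0 reads in both controls and 103 and 171 reads in mutants, at least 83.2-fold higher against a floor of 3 reads over the control group. Gm3892 stood at 1.78 and 1.87 CPM in controls and 8.31 and 8.39 CPM in mutants and Gm10593 at 1.87 and 1.98 CPM in controls and 8.99 and 8.37 CPM in mutants, with log2 fold changes of 2.19 ± 0.27 and 2.17 ± 0.27. Every 100-base window of Ccl19-ps3 occurs in 1 or more of 4 other genes, Ccl19 among them. Every window of Gm3892 and of Gm10593 occurs in others of 24 genes, each in the other's list, so reads of these 2 cannot be assigned to 1 copy and their calls are not independent. From 500 kb before Gm3892 to 500 kb after Gm10593, 57 genes were tested, and 26 (45.6%) lay higher in both mutants without overlap, beside 18.5% of all genes, while 9 (15.8%) lay lower. Of the 26, which span 41639378 to 42856771, 21 have placeholder names and 12 are annotated as protein coding, and their highest level was 15.9 CPM. The stretch was drawn around the 3 called genes, which are among the 26. Ccl19-ps3 and Gm10601 had 0 reads in both controls and passed the filter on low counts only through the mutants. So did Gm12407 (2 and 2 reads in controls), Gm13307 (0 and 3), Ccl19-ps1 (6 and 0), Gm3893 (4 and 3) and Gm2564 (2 and 0). Genes that pass in this way add to the higher side. Copies in the stretch share sequence, so the 26 are not independent members and their share is a description, not a test.

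**Figure D4:**
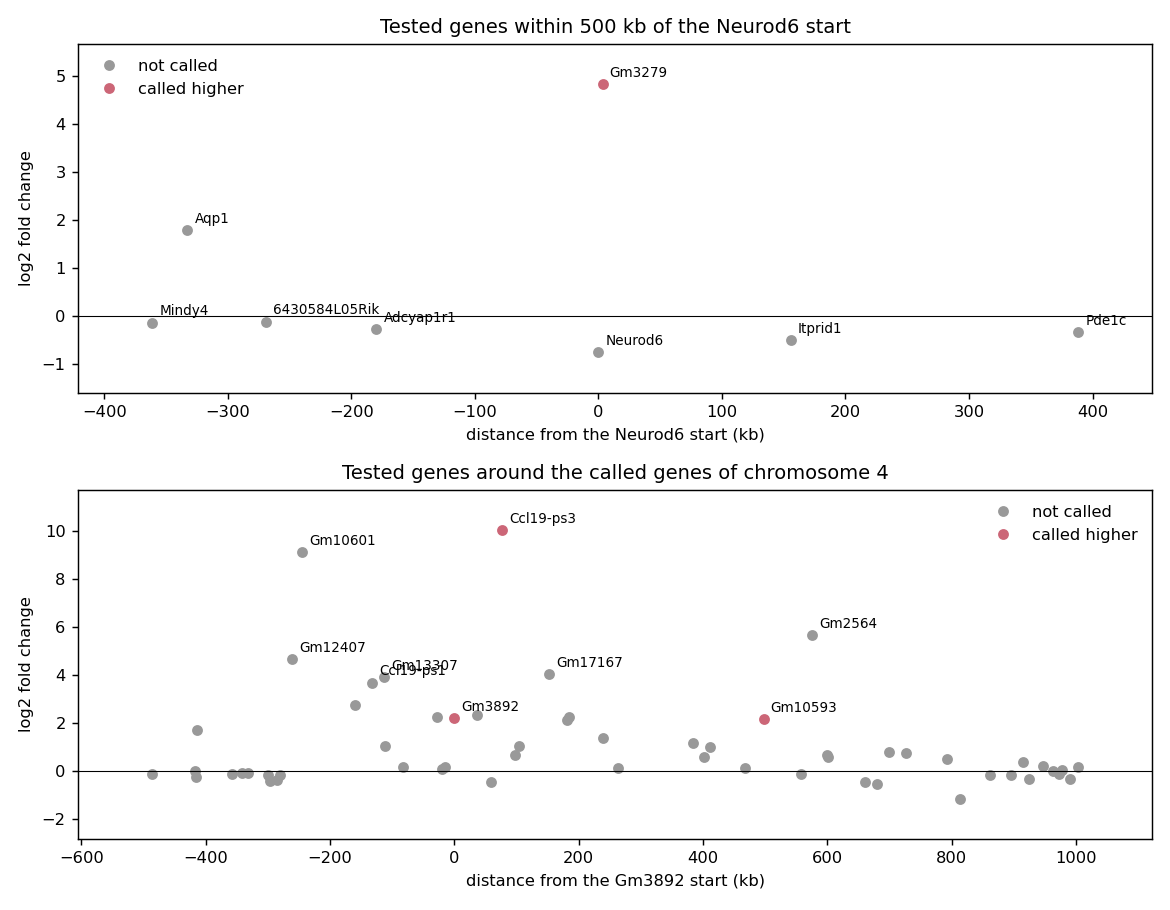
Log2 fold change of tested genes against distance in kb from the Neurod6 start (upper panel) and from the Gm3892 start on chromosome 4 (lower panel), with called genes in red and others in grey. Near Neurod6 only Gm3279 was called, 3.31 kb away at 4.83, and on chromosome 4 the 3 called genes lie among others with higher values in both mutants.

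No other gene with an established name rose at the threshold, and those with the lowest p-values are given as values. Neurod1, a bHLH factor of newborn excitatory neurons related to Neurod6, stood at 17.1 and 18.5 CPM in controls and 36.2 and 33.6 CPM in mutants. Both mutant pools lay well above both controls, with a log2 fold change of 0.97 ± 0.15 (edgeR's adjusted p = 0.0953, DESeq2's 6.09e-05). Aldh1a3, a retinaldehyde dehydrogenase that makes retinoic acid, had 7 and 33 reads in controls and 284 and 291 reads in mutants (3.76 ± 0.52, edgeR's adjusted p = 0.0784). The non-coding RNA of the Rosa26 locus, Gt(ROSA)26Sor, stood at 5.07 and 4.16 CPM in controls and 15.96 and 13.5 CPM in mutants (1.68 ± 0.23, edgeR's adjusted p = 0.0736). In none of these 3 did the groups overlap. The others named by the same rule were Ppp1r14c, a phosphatase inhibitor (0.97 ± 0.14), Dpy19l1 (0.76 ± 0.11), the matrix protein gene Fras1 (0.94 ± 0.14), the MAP kinase phosphatase Dusp4 (0.88 ± 0.13), the giant cadherin Fat1 (0.73 ± 0.11), the basement membrane proteoglycan Hspg2 (1.03 ± 0.16), the receptor Notch2 (0.69 ± 0.11), Ier5 (0.72 ± 0.12) and the pro-apoptotic Bcl2l11 (0.90 ± 0.16). Their adjusted p-values in edgeR ran from 0.0823 to 0.204, and DESeq2 called all 12 of these genes.

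Among genes that define excitatory neurons and their layers, Inhba and the subplate marker Lmo3 were called. Of 15 genes of cortical excitatory identity 0 were called by edgeR (3 higher and 2 lower by unadjusted p below 0.05, 1 and 1 by DESeq2), with a median log2 fold change of −0.024 [−0.19 without control 1, 0.16 without control 2] and the lowest p-values in Neurod1 and Neurod6, given above. Tbr1, a T-box factor of early-born neurons, stood at 102 and 134 CPM in controls and 152 and 191 CPM in mutants, and the vesicular glutamate transporter Slc17a7 at 36.7 and 63.0 CPM in controls and 54.4 and 56.1 CPM in mutants. Neither passed the test, and the Slc17a7 ranges overlapped. Of 17 deep-layer markers 0 were called by edgeR (4 higher and 0 lower by unadjusted p below 0.05, 2 higher by DESeq2), with a median of 0.010 [−0.034 without mutant 1, 0.23 without control 1], and 5 lay higher and 1 lower without overlap, beside 18.5% and 17.9% of all tested genes. The lowest p-values were those of Zfpm2, a cofactor of GATA factors (33.1 and 27.3 CPM in controls and 55.8 and 44.8 CPM in mutants, log2 fold change 0.74 ± 0.16), and Ldb2, a cofactor of LIM proteins (79.9 and 94.97 CPM in controls and 134 and 119 CPM in mutants, 0.53 ± 0.13). Of 15 upper-layer markers Inhba was called lower and 0 higher (1 higher and 5 lower by unadjusted p below 0.05, 0 and 1 by DESeq2), with a median of −0.091 [−0.27 without control 1, 0.040 without control 2], and Rorb, a nuclear receptor of layer 4 neurons, stood at 175 and 192 CPM in controls and 131 and 142 CPM in mutants without passing (−0.43 ± 0.11). On that list 5 lay lower and 2 higher without overlap, beside the same shares of all genes.

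Among 20 markers of subplate neurons Lmo3 was called lower and 0 were called higher (0 higher and 3 lower by unadjusted p below 0.05, 0 and 2 by DESeq2), with a median log2 fold change of −0.19 [−0.34 without control 2, −0.15 without control 1]. On this list 6 lay lower and 2 higher without overlap, where the background was 17.9% and 18.5%. Sema3e, a secreted semaphorin, stood at 14.2 and 12.8 CPM in controls and 6.29 and 6.85 CPM in mutants (−1.04 ± 0.21, edgeR's adjusted p = 0.266), and the netrin receptor Unc5c at 99.4 and 104 CPM in controls and 57.7 and 83.8 CPM in mutants (−0.53 ± 0.17, adjusted p = 0.626). Both were lower in each mutant pool and neither passed. The list's summed level was 786 and 699.7 CPM in controls and 509 and 561 CPM in mutants, of which Lmo3 alone was 221 and 196 CPM and 71.3 and 67.6 CPM. Of 15 LIM-domain transcription factors and their cofactors Lmo3 was the 1 member called, lower. By unadjusted p below 0.05 there were 2 higher and 5 lower members, DESeq2 called 1 and 1, and 2 lay higher and 3 lower without overlap, with a median of −0.050 [−0.16 without mutant 2, −0.083 without control 1]. Ldb1, a cofactor that Lhx2 binds, was at 139 and 167 CPM in controls and 147 and 162 CPM in mutants, and Lmo4, another LIM-only protein, at 92.3 and 141 CPM in controls and 92.8 and 63.7 CPM in mutants, with overlapping groups in both. Of 19 tested genes of area patterning Lmo3 was again the 1 called (4 higher and 4 lower by unadjusted p below 0.05, 1 and 2 by DESeq2), with a median of 0.18 [0.034 without control 2, 0.18 without mutant 2]. The ephrin Efna5 stood at 48.6 and 26.2 CPM in controls and 12.5 and 17.4 CPM in mutants there (−1.32 ± 0.29, edgeR's adjusted p = 0.353), and Etv5, a target of FGF signalling, at 59.4 and 48.5 CPM in controls and 82.3 and 78.1 CPM in mutants (0.57 ± 0.13, adjusted p = 0.377), without passing.

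Genes of axon guidance, adhesion and matrix were not called by edgeR. Over all 21392 tested genes, 728 were higher and 678 lower by unadjusted p below 0.05, and DESeq2 called 67 and 76. Without overlap, 18 of the 64 guidance genes lay higher and 14 lower, beside 18.5% and 17.9% of all tested genes. The same counts were 12 and 14 for the 53 adhesion genes and 6 and 6 for the 24 matrix genes. Of 64 guidance cues and receptors 0 passed in edgeR (9 higher and 8 lower by unadjusted p below 0.05, 0 and 3 by DESeq2). Sema3e and Efna5, given above, had the lowest p-values, and the median was 0.051 [0.011 without control 2, 0.083 without control 1]. Of 53 adhesion molecules 0 passed in edgeR (7 higher and 11 lower by unadjusted p below 0.05, 3 and 4 by DESeq2), with a median of −0.014 [−0.064 without mutant 1, 0.083 without control 1]. Ntm, the GPI-anchored neurotrimin, stood at 218 and 239 CPM in controls and 143 and 151 CPM in mutants (−0.64 ± 0.11, edgeR's adjusted p = 0.131), and Lrrtm3, a synaptic leucine-rich repeat protein, at 24.0 and 20.6 CPM in controls and 12.2 and 11.3 CPM in mutants (−0.93 ± 0.17, adjusted p = 0.205). The groups did not overlap in either gene. Of 24 matrix genes 0 passed in edgeR (4 higher and 3 lower by unadjusted p below 0.05, 0 and 1 by DESeq2), with a median of −0.031 [−0.083 without control 2, 0.15 without control 1], and the lowest p-values were those of the hyaluronan synthase Has2 (−1.87 ± 0.46) and the proteoglycan Spock1 (−0.45 ± 0.12). Of 15 tested neurotrophic genes 0 passed in edgeR (4 higher and 1 lower by unadjusted p below 0.05, 0 by DESeq2), with a median of −0.027 [−0.063 without mutant 1, 0.19 without control 1]. Neurotrophin 3, Ntf3, stood at 0.0970 and 0.963 CPM in controls and 10.8 and 2.51 CPM in mutants and Hgf at 17.9 and 18.6 CPM in controls and 27.2 and 23.5 CPM in mutants.

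Genes of excitability and the synapse showed Grm2 as their 1 call. It was the 1 called of 34 receptors for glutamate and GABA, where 12 lay lower and 5 higher without overlap (backgrounds 17.9% and 18.5%), DESeq2 called 0 higher and 3 lower, and the median was −0.050 [−0.080 without control 2, −0.035 without control 1]. Gabra3, a GABA-A receptor subunit, stood at 66.4 and 60.0 CPM in controls and 42.7 and 41.2 CPM in mutants (−0.59 ± 0.12), and Grm8, a group III metabotropic receptor, at 19.0 and 14.5 CPM in controls and 9.32 and 7.81 CPM in mutants (−0.97 ± 0.22), and neither passed. Of 43 tested ion channel genes 0 passed in edgeR (1 higher and 5 lower by unadjusted p below 0.05, 1 and 2 by DESeq2), with a median of −0.089. The calcium channel subunits Cacna2d1 (171 and 166 CPM in controls and 107 and 119 CPM in mutants) and Cacna1b (238 and 238 CPM in controls and 317 and 345 CPM in mutants) had the lowest p-values there, 1 on each side. Of 28 synaptic vesicle genes 0 passed in edgeR (0 higher and 5 lower by unadjusted p below 0.05, 0 and 1 by DESeq2). Their median was −0.14 [−0.25 without mutant 2, 0.011 without mutant 1]. Of the 28, 22 lay below their control level, beside 10516 of all 21392 tested genes. On this list 2 lay higher and 7 lower without overlap, where the background was 18.5% and 17.9%. Sv2c stood at 43.6 and 31.5 CPM in controls and 23.3 and 19.8 CPM in mutants (−0.80 ± 0.19) and the calcium sensor Syt1 at 254 and 267 CPM in controls and 187 and 216 CPM in mutants (−0.37 ± 0.11). Of 19 tested immediate early genes 0 passed in edgeR (2 higher and 1 lower by unadjusted p below 0.05, 1 higher by DESeq2), with a median of 0.20 and the lowest p-values in Ier5 (0.72 ± 0.12) and Fosl2 (0.45 ± 0.12).

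**Figure D5:**
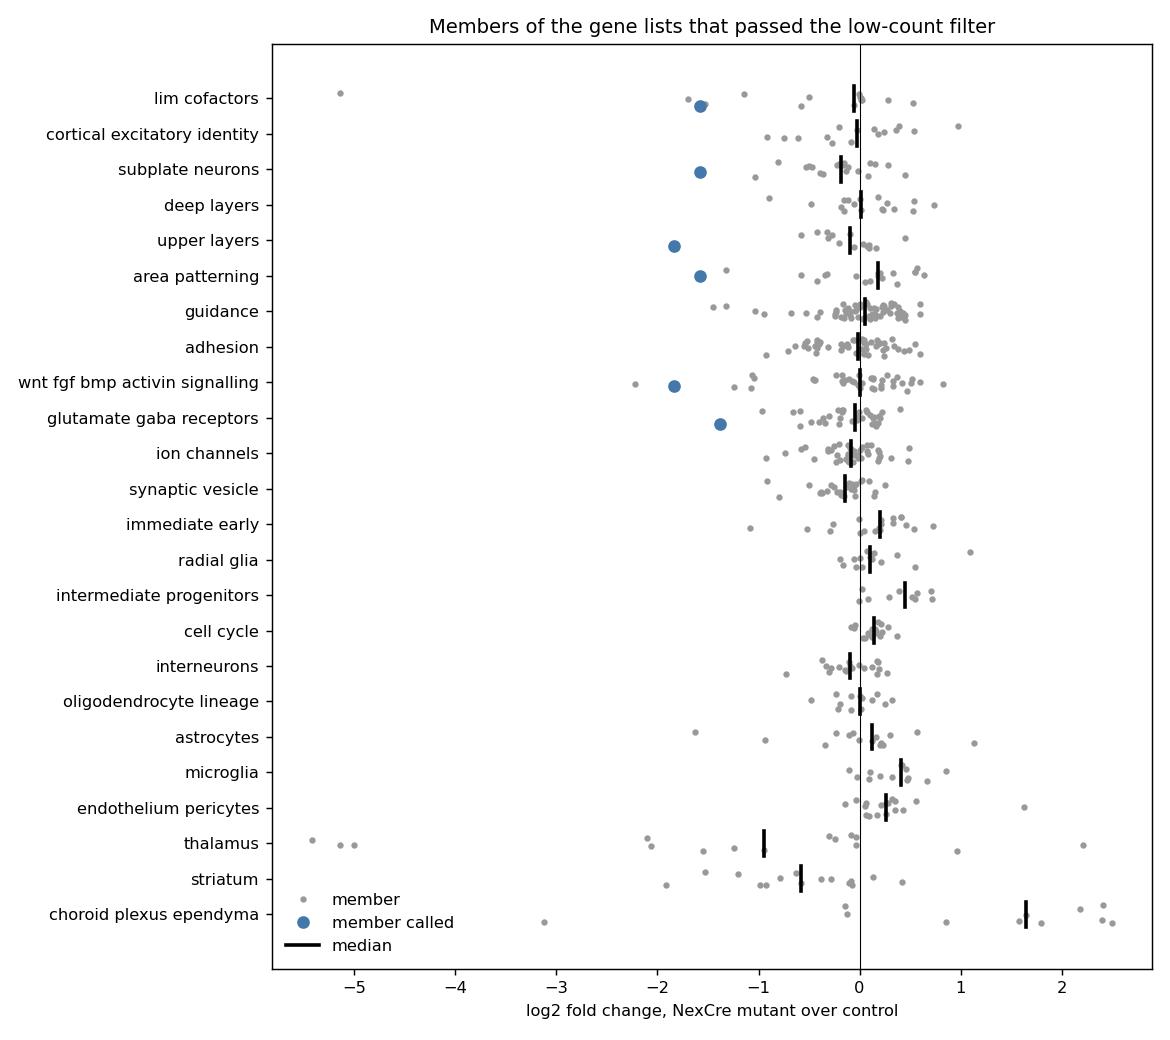
Log2 fold change of tested members of 24 gene lists, 1 row a list, with called members as large blue points and the list's median as a bar. Most members lie within 1 of zero on the log2 scale, and the called members are Lmo3, Inhba and Grm2, which recur because lists share genes.

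Intermediate progenitors, the dividing cells that give rise to cortical neurons, had the list with the highest median among cortical cell types in the main fit. Of its 10 tested members 0 passed in edgeR (6 higher and 0 lower by unadjusted p below 0.05, 1 higher by DESeq2), 7 lay higher and 0 lower without overlap where the background was 18.5%, and the median was 0.45. Eomes, the T-box factor that marks these cells, stood at 40.1 and 40.2 CPM in controls and 72.9 and 58.4 CPM in mutants (0.71 ± 0.14, edgeR's adjusted p = 0.262). Sstr2, a somatostatin receptor of the same cells, stood at 32.6 and 34.3 CPM in controls and 53.9 and 45.4 CPM in mutants (0.57 ± 0.14, adjusted p = 0.431). Leaving out single pools gave medians of 0.37 to 0.45. By DESeq2 the median was 0.38, beside 0.41 for the microglial list. Without the filter on low counts it was 0.39, beside 0.41 for microglia, so the rank depended on the fit. Of 15 radial glia markers 0 passed in edgeR (3 higher and 0 lower by unadjusted p below 0.05, 0 by DESeq2), with a median of 0.10 [−0.075 without control 2, 0.32 without control 1]. Pax6, a progenitor factor, stood at 35.2 and 34.6 CPM in controls and 47.3 and 54.7 CPM in mutants and Hopx at 3.81 and 4.19 CPM in controls and 10.1 and 7.02 CPM in mutants. Of 18 cell cycle genes 0 passed in edgeR (1 higher and 0 lower by unadjusted p below 0.05, 0 by DESeq2), with a median of 0.14 [0.045 without mutant 1, 0.26 without control 1], the lowest p-values in Mki67 (0.37 ± 0.15) and Mcm6 (0.29 ± 0.13), and 7 higher and 1 lower without overlap, where the background was 18.5% and 17.9%.

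Markers of the other cell types of the cortex gave 0 calls in edgeR. The 19 interneuron markers (0 higher and 1 lower by unadjusted p below 0.05, 0 and 1 by DESeq2) had a median of −0.096 [−0.34 without mutant 2, 0.13 without mutant 1], and neuropeptide Y, Npy, stood at 95.4 and 109.9 CPM in controls and 53.5 and 70.5 CPM in mutants with Erbb4 at 0.27 on the log2 scale. The 15 astrocyte markers (1 and 1, 0 by DESeq2) had a median of 0.12 [−0.18 without control 2, 0.34 without control 1], the lowest p-values being those of Sparcl1 (0.30 ± 0.12) and Gja1 (−0.94 ± 0.38). The 13 oligodendrocyte markers (0 and 1, 0 by DESeq2) had a median of 0.00052 [−0.28 without mutant 2, 0.11 without mutant 1], with Lhfpl3 at −0.48 ± 0.18 and Cspg4 at 0.33 ± 0.20. The 13 microglial markers (0 and 0, 0 by DESeq2) had a median of 0.41 [0.13 without mutant 1, 0.56 without mutant 2], with Cx3cr1 at 0.48 ± 0.21 and Tyrobp at 0.67 ± 0.36. The 17 endothelial and pericyte markers (0 and 0, 0 by DESeq2) had a median of 0.26 [0.11 without mutant 2, 0.28 without control 1], with Flt1 at 0.56 ± 0.25 and Abcc9 at 0.35 ± 0.17. Meningeal markers (13 tested, 0 and 3, 0 by DESeq2) had a median of 0.11 [−0.25 without mutant 2, 0.14 without control 1], with Foxd1 at −2.15 ± 0.55 and Dcn at −1.43 ± 0.39. The 9 Cajal-Retzius markers (0 and 3, 0 and 1 by DESeq2) had a median of −0.30 [−0.80 without control 2, −0.044 without mutant 2], with Cacna2d2 at −0.86 ± 0.20 and Ebf3 at −3.72 ± 1.17. The 7 tested erythroid genes (0 and 2, 0 by DESeq2) had a median of −0.38 [−0.64 without mutant 1, −0.092 without control 1], with Hba-a2 at −0.51 ± 0.16 and Hba-a1 at −0.45 ± 0.18.

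Lists of neighbouring tissues moved with single pools. The median of the 15 thalamic markers was −0.94 [−1.43 without control 2, 0.20 without control 1]. Its member with the lowest p was Slc6a4, the serotonin transporter that thalamocortical neurons carry at this age, which stood at 0.711 and 1.04 CPM in controls and 4.96 and 3.25 CPM in mutants (2.21 ± 0.41, edgeR's adjusted p = 0.205). It ran opposite to Lhx9 (−5.14 ± 1.34) and was lowest in control 1, the pool with the most thalamic RNA. Of the thalamic list 0 passed in edgeR (1 higher and 7 lower by unadjusted p below 0.05, 1 higher by DESeq2). The 11 tested choroid plexus markers had a median of 1.64 [−1.88 without mutant 1, 3.41 without control 1], with 0 passing in edgeR (1 and 1 by unadjusted p below 0.05, 0 by DESeq2), and the lowest p-values in Prlr (−3.12 ± 0.94) and Sostdc1 (2.41 ± 0.91). The 15 striatal markers had a median of −0.58 [−1.24 without mutant 2, 0.62 without control 1], with 0 passing in edgeR (0 by unadjusted p below 0.05, 0 by DESeq2), Foxp1 at −0.38 ± 0.17 and Meis2 at 0.42 ± 0.20. Of 11 tested markers of piriform cortex, amygdala and claustrum Lmo3 was called lower (1 higher and 2 lower by unadjusted p below 0.05, 0 and 2 by DESeq2), the median was −0.19 [−0.63 without mutant 2, 0.33 without control 1], and the netrin-G gene Ntng2 stood at 51.6 and 61.6 CPM in controls and 32.5 and 38.3 CPM in mutants without passing. The 13 hippocampal markers had a median of 0.18 [0.079 without control 2, 0.33 without mutant 2], with 0 passing in edgeR (2 and 2 by unadjusted p below 0.05, 1 higher by DESeq2) and the peptide gene Grp at 5.85 and 7.52 CPM in controls and 12.7 and 14.1 CPM in mutants (1.00 ± 0.22). Ribosomal proteins (27 tested, median −0.053 [−0.12 without mutant 1, 0.014 without mutant 2], Rpl3 at −0.30 ± 0.11 and Rps6 at −0.16 ± 0.11) and stress and apoptosis genes (18 tested, median −0.089 [−0.16 without control 1, −0.021 without control 2], Bcl2l11 as above and Cdkn1a at −1.02 ± 0.43) had 0 called in edgeR. Before adjustment, p was below 0.05 in 0 higher and 1 lower ribosomal proteins and in 1 and 1 stress genes, and DESeq2 called 0 and 1, the latter higher. Of 5 tested sex-linked genes 0 passed in edgeR (0 by unadjusted p below 0.05, 0 by DESeq2), with Xist at 3.15 ± 1.71 and Uty at −0.83 ± 1.20 on the log2 scale. The part of these tissues in the 17 calls was not tested, and leaving out single pools, as given above, cannot settle it.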

How the data were processed

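RNA of microdissected subplate was sequenced as paired 100-base reads from TruSeq V2 libraries, per the labels' protocols. The deposited values are whole-number read counts per gene, without normalization. HISAT2, SAMtools and DESeq2, and the mm10 build, are listed per the submitters' processing notes. Neither the counting program nor its annotation or strandedness is given in the sources used here. The table's 24 rows named by digits, 0.259% to 0.269% of reads, were left out, and its 37 mitochondrial rows held 0 reads.

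Genes passing filterByExpr (minimum count 10, total 15) were TMM-scaled and tested with the quasi-likelihood test of edgeR 4.0.16 in R 4.3.3 (limma 3.58.1), with group as the only term and Benjamini-Hochberg adjustment at 0.05. The biological coefficient of variation was 23.5%. Log2 fold changes are mutant over control with their standard errors. DESeq2 1.42.0, other scalings and filters, a replicate block, all 8 libraries in 1 fit and fits without each pool were alternatives. Depth was 31.2 to 38.9 M reads. The p-values measure only spread between pools, with 2 pools a group, moderated by a spread shared across genes. Genes were named by a rule: Lhx2, Neurod6 and Emx1, then up to 12 in each direction, called genes by fold change and then the lowest p-values, with at least 1 CPM on average, no overlap and an established name, and in each list the called members or the 2 with the lowest p. Named outside it, after their values were seen, were Tbr1, Slc17a7, Ldb1, Lmo4, Acvr1, Acvr2a, Acvr2b, Inhbb, Sfrp1, Fzd1, Rorb, Sema3e, Unc5c, Efna5, Etv5, Gabra3, Grm8, Ntng2, Itprid1, Adcyap1r1, the 6 genes called higher and the markers that describe the pools. The comparison, the gene lists and the rule were chosen with earlier results of these data known. Positions are from GENCODE M21 (mm10), which matched 53543 of 55202 gene names, and promoters and Tafa2 from RefSeq (GRCm38.p6).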

Additional observations from a re-analysis of the deposited data

How the results depend on the processing

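The number of calls depended on the settings, while the direction of the 17 calls was largely fixed by the lack of overlap between the groups. Without the filter on low counts 206 genes were called higher and 269 lower. DESeq2 called 67 and 77 in all its genes, and a threshold of 0.10 gave 18 higher. With all 8 libraries in 1 fit 3 were lower. Leaving out each pool in turn gave 4 to 68 higher and 6 to 170 lower, with the smallest counts without mutant 1. The replicate block gave 17 higher, and all 17 genes were kept. The labels do not say that the replicate numbers mark shared litters or days, and the deviations of same-numbered pools correlated at 0.122. The cause of these changes was not tested.

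Lhx2 was −0.0064 without control 1 (edgeR's adjusted p = 0.998) and ran from −0.0064 to 0.38 when each pool was left out, with an adjusted p of at least 0.493 in every fit run. Neurod6 was called without the filter (−0.75, edgeR's adjusted p = 3.46e-07), by DESeq2 (−0.75, adjusted p = 0.00193) and without control 1 (−0.93, adjusted p = 0.0165), and ran from −0.98 to −0.55 when each pool was left out, while over all alternatives its adjusted p ran up to 0.950, with all 8 libraries. The median of all genes was 0.0051 under TMM, 0.0019 under RLE and 0.018 under upper-quartile scaling.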

Other observations

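At an adjusted threshold of 0.10 in edgeR, named after their values were seen, 4 more genes with established names joined the lower side beside Fst. Scg2, a granin of secretory vesicles, stood at 55.7 and 38.6 CPM in controls and 16.1 and 19.95 CPM in mutants (−1.39 ± 0.20, edgeR's adjusted p = 0.0874). Lpl, lipoprotein lipase, stood at 179.9 and 219 CPM in controls and 107 and 118 CPM in mutants (−0.83 ± 0.13, adjusted p = 0.0989). Gucy1a1, a subunit of the nitric oxide receptor, stood at 306 and 338 CPM in controls and 189 and 204 CPM in mutants (−0.72 ± 0.11, adjusted p = 0.0998). Cxxc4, an inhibitor of Wnt signalling, stood at 119 and 117 CPM in controls and 74.4 and 73.9 CPM in mutants (−0.67 ± 0.10, adjusted p = 0.0998). In each of the 4 both mutant pools lay below both controls, and none is among the 17 calls at 0.05.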
